A study of Mus musculus with 6 samples.

Results

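The 38 genes described here carry glucose into the cell, break it down to pyruvate, and turn pyruvate into lactate and export it. They also restrain the conversion of pyruvate to mitochondrial acetyl-CoA, and store glucose as glycogen and release it. They were taken by name from a list of pathway roles, drawn up with earlier results of these data known, out of 24445 genes in the count table. The list uses no measured value as a limit. For a gene with several RefSeq transcripts, the transcript with the most counts over all libraries was used. The RNA came from bone marrow-derived macrophages (BMDMs) of female mice, that is, bone marrow precursors differentiated for 7 days with L929-conditioned medium and then given 100 U/mL recombinant murine IL-4 for 24 h. The 3 Ctrl libraries came from Acly fl/fl mice, in which loxP sites flank exon 9 of Acly. The 3 AclyM-KO libraries came from mice that carry the same floxed alleles together with Lyz2-Cre, which is active in myeloid cells, so that deletion depends on the activity of the Lyz2 promoter. The floxed mice were C57Bl/6J, and the age of the bone marrow donors is not given in the sources used here. Acly encodes ATP citrate lyase, which makes cytosolic acetyl-CoA from citrate. The study describes its RNA-seq replicates as biological in one place and as technical replicates from pooled mice in another, so p-values here measure the spread between libraries.

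Glycolysis converts glucose into pyruvate through a preparatory phase, which spends ATP, and a pay-off phase, which yields ATP and NADH. Hexokinase, phosphofructokinase and pyruvate kinase catalyze the steps that are practically irreversible, and most steps can be served by several isozymes encoded by separate genes. Many of these genes are classic targets of hypoxia-inducible factor 1 (HIF-1), which binds the core letters ACGTG or GCGTG. Inflammatory macrophages are known for high glycolysis, whereas IL-4-activated macrophages are known mainly for mitochondrial respiration.

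The libraries held 12151975 to 15587283 counts on the transcripts used. The root mean square difference in log2 expression was 0.255 to 0.303 between libraries of a group and 0.392 to 0.42 between groups. Acly itself was at 332, 321 and 350 CPM (counts scaled to library size) in the Ctrl libraries and 146, 134 and 136 CPM in the AclyM-KO libraries. Of the macrophage markers, 9 of 9 were detected. The erythroid markers Hba-a1, Hba-a2, Hbb-bs, Hbb-bt and Slc4a1 had no counts. The erythroid marker Alas2 was detected in every library, with 5, 9 and 5 counts in Ctrl and 15, 5 and 9 in AclyM-KO. The fibroblast and lymphocyte lists summed to at most 1.3 CPM in a library.

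The 6 genes of the list with the lowest p-values among those called lower by the limits given with the counts were the lactate exporter Slc16a3, the triose phosphate isomerase Tpi1, the glycogen phosphorylase Pygl, the glucose phosphate isomerase Gpi1, the glycogen synthase Gys1 and the aldolase Aldoc. The 250 bases before their start sites are shown as a description of these 6 genes, which were picked by p-value. They are given 5′ to 3′ on the strand of the gene, from RefSeq on build GRCm38.p6, with capitals at every ACGTG or GCGTG and at the same letters read on the other strand, CACGT or CACGC.
Slc16a3, chr11:120948817-120949066, plus strand: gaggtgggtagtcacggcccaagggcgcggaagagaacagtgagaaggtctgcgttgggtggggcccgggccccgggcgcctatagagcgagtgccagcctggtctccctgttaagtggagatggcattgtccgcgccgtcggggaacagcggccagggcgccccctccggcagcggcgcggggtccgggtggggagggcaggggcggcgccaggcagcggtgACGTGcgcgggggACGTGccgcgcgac
Pygl, chr12:70227684-70227933, minus strand: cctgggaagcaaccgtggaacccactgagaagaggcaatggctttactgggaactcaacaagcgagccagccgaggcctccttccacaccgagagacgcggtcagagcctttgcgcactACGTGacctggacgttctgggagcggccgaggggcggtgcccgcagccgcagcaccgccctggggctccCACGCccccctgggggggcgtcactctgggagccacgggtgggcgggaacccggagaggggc
Aldoc, chr11:78322823-78323072, plus strand: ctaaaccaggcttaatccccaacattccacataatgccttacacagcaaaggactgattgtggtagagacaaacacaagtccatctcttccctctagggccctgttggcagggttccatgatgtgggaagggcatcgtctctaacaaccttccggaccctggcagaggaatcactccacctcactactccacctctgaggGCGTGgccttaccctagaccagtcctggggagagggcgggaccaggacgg
Tpi1, chr6:124814159-124814408, minus strand: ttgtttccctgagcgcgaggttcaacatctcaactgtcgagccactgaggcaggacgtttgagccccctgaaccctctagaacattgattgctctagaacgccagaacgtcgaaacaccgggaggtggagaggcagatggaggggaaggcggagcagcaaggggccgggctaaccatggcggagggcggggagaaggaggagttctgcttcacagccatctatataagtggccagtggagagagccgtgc
Gys1, chr7:45434589-45434838, plus strand: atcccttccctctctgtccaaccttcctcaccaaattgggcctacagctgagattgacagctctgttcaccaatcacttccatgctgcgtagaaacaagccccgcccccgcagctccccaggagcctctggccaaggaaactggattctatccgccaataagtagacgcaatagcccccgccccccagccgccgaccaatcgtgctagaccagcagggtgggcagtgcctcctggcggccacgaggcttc
Gpi1, chr7:34230337-34230586, minus strand: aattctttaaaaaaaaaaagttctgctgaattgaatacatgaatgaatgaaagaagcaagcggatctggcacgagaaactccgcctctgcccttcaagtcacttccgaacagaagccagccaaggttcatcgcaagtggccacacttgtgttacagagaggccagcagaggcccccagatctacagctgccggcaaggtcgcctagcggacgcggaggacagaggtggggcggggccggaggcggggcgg
Slc16a3 held ACGTG 27 and 14 bases before its start, Pygl held matches 131 and 62 bases before its start and Aldoc held one 50 bases before its start. These letters were not found in the windows of Tpi1, Gys1 and Gpi1. RefSeq windows were given for 37 of the 38 genes, all but Slc2a3, with 57 start sites in all. Over the whole window, which also takes in 50 bases after the start, 73.7% of these 57 windows held ACGTG or GCGTG on either strand. The letters were looked for on both strands, and a match is a description and not a binding site. The share was 61.6% over the 12266 windows of genes tested and 43.8% over all 32851 windows. ACGTG alone was in 45.6% of the windows, against 25.7% for genes tested, whereas GCGTG alone was in 50.9% against 50.1%. The longer E-box CACGTG, which contains ACGTG, was in 10.5% against 10.1%. Windows of genes called lower and of the other genes of the list held ACGTG or GCGTG at nearly the same share, 76.2% of 21 and 72.2% of 36.

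Most of the pathway was lower in AclyM-KO macrophages. Counts were compared with edgeR's quasi-likelihood test over 12023 genes. A gene is said to have fallen or risen when its Benjamini-Hochberg adjusted p-value was under 0.05, and it is called lower or higher when its log2 fold change was also beyond 0.58 in that direction. Of the 38 genes, 37 had enough counts to be tested. They comprised 15 called lower and 1 called higher, while over all genes tested 2.57% were called lower, 2.98% higher and 5.55% in either direction. By the adjusted p-value alone, 24 fell and 4 rose, against 12.6% and 12.4% of all genes. Log2 fold changes (AclyM-KO over Ctrl) were below 0 for 30 and above 0 for 7, with a median of -0.46, while the median of all genes tested was 0.001. The AclyM-KO libraries were all below the Ctrl libraries for 25 genes and all above for 4, compared with 19.8% and 20.5% of all genes. Together the genes took 0.615% of the counts in Ctrl and 0.463% in AclyM-KO. Their summed expression was 5859, 6349 and 6227 CPM in Ctrl and 4642, 4668 and 4587 CPM in AclyM-KO, so the Ctrl libraries were also more spread out (SD 255 against 41.3).

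**Figure D1:**
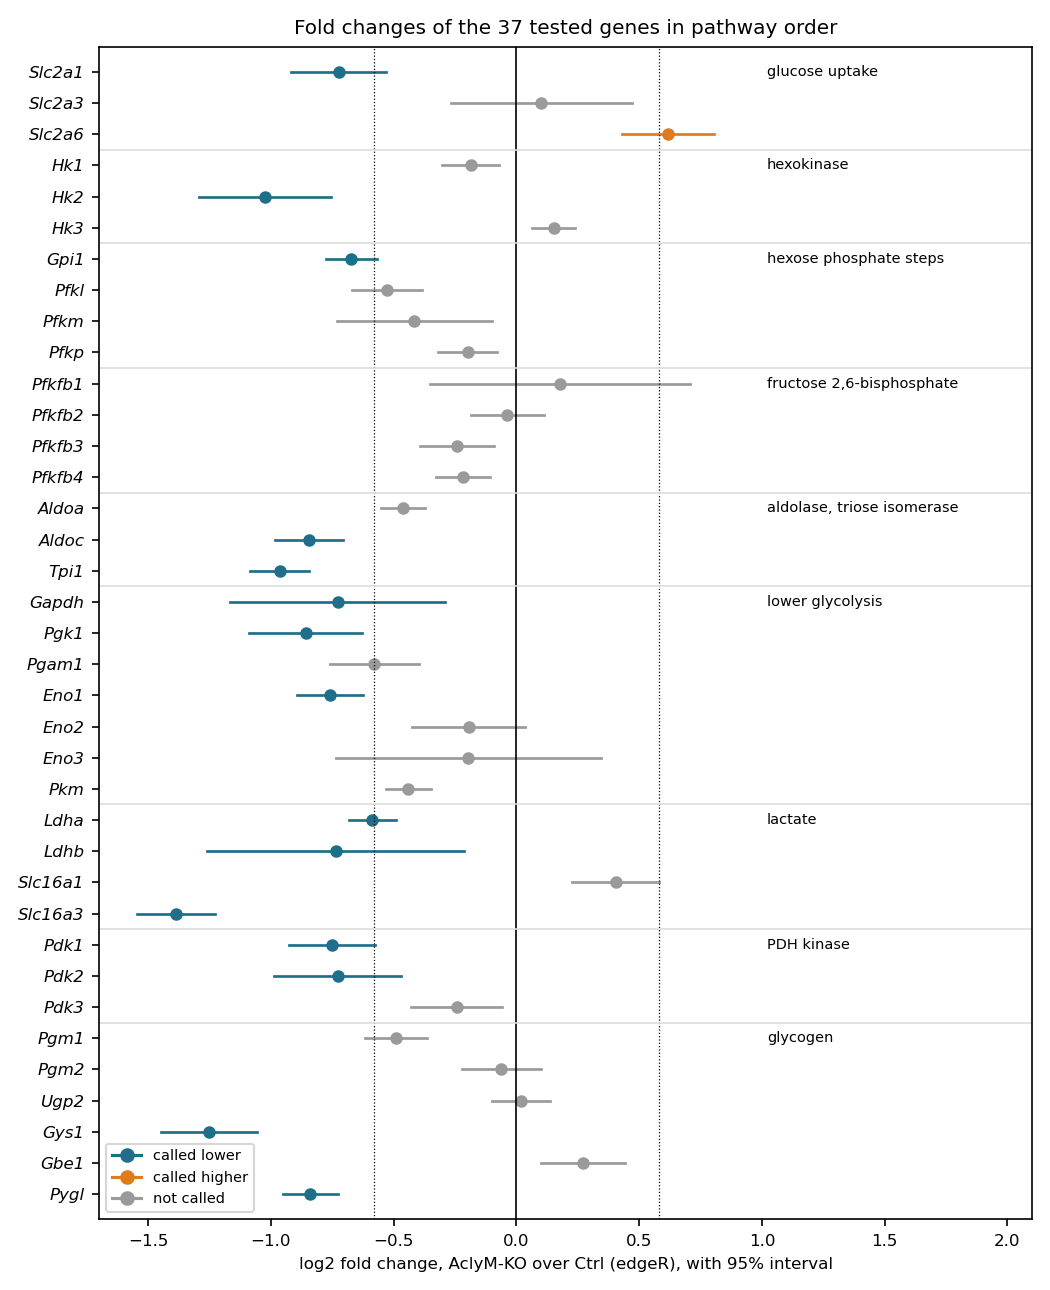
Log2 fold change of AclyM-KO over Ctrl (x axis) for the 37 tested genes (y axis, in pathway order), with points at the edgeR estimate, lines for the 95% interval and dotted lines at the limit of 0.58 in either direction. The 15 genes called lower lie in 8 of the 9 groups, and the only gene called higher is Slc2a6.

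Sequence sharing limits what can be read from some of these genes, because several have processed copies elsewhere in the genome. Of the 38 transcripts, 19 had no stretch of 50 bases in common, in either orientation, with transcripts of other annotated genes, 11 shared up to 20% of such stretches and 8 shared more. Gapdh shared 90.4% of its stretches with 222 other genes, Eno1 shared 72.2%, Pgk1 68.0%, Pfkfb2 49.7%, Pgam1 41.5%, Pkm 34.4%, Ldhb 27% and Gpi1 25.3%. How the authors treated reads with several alignments is not given in the sources used here. Gapdh, usually among the most abundant mRNAs of a cell, had only 64, 82 and 89 counts in Ctrl. Eno1 and its copy Eno1b had nearly equal counts, for example 2310 and 2312 in the first Ctrl library. Levels of these 8 genes are therefore uncertain, and the part of shared sequence in their fold changes was not tested. The log2 fold changes of all 8 were below 0, with a median of -0.70. Without them, which was decided after the values were seen, 10 of 29 genes were called lower and 1 higher, with a median of -0.24.

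**Figure D2:**
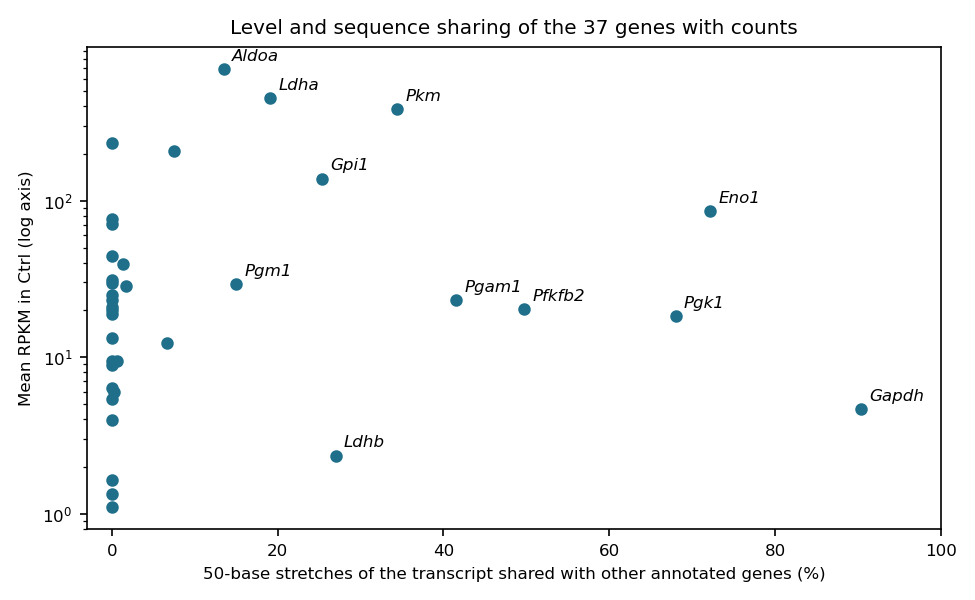
Mean level in Ctrl in RPKM (CPM per kilobase of transcript, y axis, log scale) against the percentage of 50-base stretches of a transcript that other annotated genes share (x axis), with 1 point for each of the 37 genes with counts. Gapdh, at 90.4%, lies at 4.66 RPKM, far below Aldoa at 695 RPKM.

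Glucose enters through transporters that differed in direction. Slc2a1 (chromosome 4, 119108745 to 119137330), which encodes the widespread transporter GLUT1, was at 75.9, 104 and 100 CPM in Ctrl and 58.6, 57.1 and 53.3 CPM in AclyM-KO. Every AclyM-KO library was below every Ctrl library, and Slc2a1 was called lower with a log2 fold change of -0.72 (standard error, SE, 0.0909, adjusted p = 3.61e-05 by edgeR). Slc2a6 (chromosome 2, 27021363 to 27028000) encodes GLUT6, a transporter found largely inside cells. It rose from 61.4, 45.1 and 52.7 CPM to 75.0, 81.1 and 88.9 CPM. The groups did not overlap and the log2 fold change was 0.62 (SE 0.0884, adjusted p = 1.20e-04 by edgeR). This call was lost without Ctrl replicate 2 or without AclyM-KO replicate 3, which gave 0.51 as the smallest value. Slc2a3, the gene of the high-affinity transporter GLUT3, was low, at 5.29 ± 0.95 CPM in Ctrl and 5.65 ± 0.562 CPM in AclyM-KO (SD, n = 3). Its log2 fold change was 0.10, with a 95% interval from -0.27 to 0.47.

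Hexokinase traps glucose in the cell as glucose phosphate, and here too the isozymes parted. Hk2 (chromosome 6, 82725025 to 82774454) encodes the inducible isozyme that can bind mitochondria. It was at 137, 219 and 160 CPM in Ctrl and 87.7, 92.3 and 73.1 CPM in AclyM-KO, which is 49.1% of the Ctrl mean. The Ctrl libraries were spread widely, but the lowest of them was above all AclyM-KO libraries. The log2 fold change was -1.02 (SE 0.127, adjusted p = 3.13e-05 by edgeR), and lay between -1.17 and -0.82 in the fits that left out 1 library. Hk3, the myeloid isozyme, was by far the most abundant, with 235 RPKM in Ctrl against 31.2 for Hk2 and 29.9 for Hk1. It rose slightly, from 758 ± 30.3 to 842 ± 7.45 CPM (SD, n = 3), a log2 fold change of 0.15 (adjusted p = 0.0145 by edgeR). The constitutive Hk1 fell slightly, by 0.19 on the log2 scale (adjusted p = 0.0195 by edgeR). Both groups were apart for Hk1 and Hk3, but neither gene was near the fold change limit.

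Expression fell more evenly at the next steps. Gpi1 (chromosome 7, 34201327 to 34230336) encodes the isomerase that makes fructose phosphate from glucose phosphate. It was at 377, 418 and 400 CPM in Ctrl and at 247, 251 and 251 CPM in AclyM-KO. Of its exonic bases, 12.3% lie under exons of Gm26762 on the other strand. The AclyM-KO values were thus close together and below all Ctrl values, with a log2 fold change of -0.67 (SE 0.0489, adjusted p = 1.78e-07 by edgeR). Phosphofructokinase commits sugar to glycolysis. The liver-type gene Pfkl fell from 78.0 ± 6.92 to 54.0 ± 2.70 CPM (SD, n = 3), which at -0.53 was within the fold change limit. Without Ctrl replicate 1 it was called lower. The platelet-type gene Pfkp, the most abundant of the 3, fell by 0.20 on the log2 scale (adjusted p = 0.0178 by edgeR). For the muscle-type gene Pfkm, with 11.1 ± 1.15 CPM in Ctrl and 8.31 ± 1.69 CPM in AclyM-KO (SD, n = 3), the groups overlapped and the adjusted p-value was 0.0521 with edgeR. Without AclyM-KO replicate 3 Pfkm was called lower.

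The PFKFB enzymes make and degrade the sugar phosphate that activates phosphofructokinase, and none of their genes was called. Pfkfb4 fell from 80.9 ± 3.29 to 69.7 ± 1.04 CPM and Pfkfb3, the isozyme with the strongest kinase activity, from 45.6 ± 2.93 to 38.6 ± 2.69 CPM (SD, n = 3), with log2 fold changes of -0.22 and -0.24. Pfkfb2 was at 49.5 ± 5.05 CPM in Ctrl and 48.3 ± 0.41 CPM in AclyM-KO (SD, n = 3), with a 95% interval for the log2 fold change from -0.19 to 0.11. The liver-type Pfkfb1 was near 2 CPM in both groups, where a wide range from -0.35 to 0.71 could not be told from 0.

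Aldolase splits the hexose into triose phosphates, and triose phosphate isomerase interconverts the products. Tpi1 (chromosome 6, 124810586 to 124814158), the only gene for its step, was at 308, 359 and 330 CPM in Ctrl and at 167, 171 and 172 CPM in AclyM-KO. This was 51.2% of the Ctrl mean, with groups far apart, a log2 fold change of -0.96 (SE 0.0564, adjusted p = 1.88e-08 by edgeR) and rank 12 by p-value among all genes tested. Aldoa, the main aldolase gene and at 695 RPKM in Ctrl the most abundant gene of the list, fell from 1077 ± 51.1 to 782 ± 9.56 CPM (SD, n = 3). Its log2 fold change of -0.46 was within the limit although the groups were clearly separated (adjusted p = 1.51e-06 by edgeR). The brain-type Aldoc (chromosome 11, 78323073 to 78327781) was far less abundant, at 51.3, 55.2 and 50.6 CPM in Ctrl and 29.7, 27.9 and 29.8 CPM in AclyM-KO. It was called lower, at -0.85 (SE 0.0656, adjusted p = 2.93e-07 by edgeR).

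In the pay-off phase, all 7 genes had log2 fold changes below 0, of which 5 fell and 3 were called lower. Over all genes tested, 12.6% fell and 2.57% were called lower. The 5 that fell, Gapdh, Pgk1, Pgam1, Eno1 and Pkm, are all among the genes sharing over 20% of their 50-base stretches. Eno2 and Eno3, which share 0.3% and 0%, did not fall by the adjusted p-value. Pgk1 (chromosome X, 106187100 to 106203699) encodes phosphoglycerate kinase, which makes ATP. It was at 33.4, 27.2 and 38.9 CPM in Ctrl and 18.5, 18.9 and 17.7 CPM in AclyM-KO. Eno1 (chromosome 4, 150236708 to 150248879) encodes the ubiquitous enolase. It was at 156, 175 and 188 CPM in Ctrl and 99.6, 100 and 107 CPM in AclyM-KO, with a log2 fold change of -0.76 (SE 0.0635, adjusted p = 6.16e-07 by edgeR). For both genes all AclyM-KO libraries were below all Ctrl libraries. The neuronal and muscle enolases Eno2 and Eno3 were low and overlapped between groups, at -0.19 and -0.20, with 95% intervals from -0.43 to 0.04 and from -0.74 to 0.35. Pkm, the pyruvate kinase gene and the third most abundant of the list, fell from 931 ± 39.6 to 686 ± 18.1 CPM (SD, n = 3), or by 0.44 on the log2 scale. The phosphoglycerate mutase gene Pgam1 fell by 0.58 on the log2 scale (SE 0.0848, adjusted p = 1.42e-04 by edgeR). It lay at the fold change limit and was called lower in 4 of the 6 fits that left out a library, those without Ctrl replicate 1 or 3 or AclyM-KO replicate 2 or 3. Gapdh, with few counts, was called lower at -0.73 (SE 0.206, adjusted p = 0.0175 by edgeR). It missed the threshold without Ctrl replicate 3 and without AclyM-KO replicate 1 or 2.

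**Figure D3:**
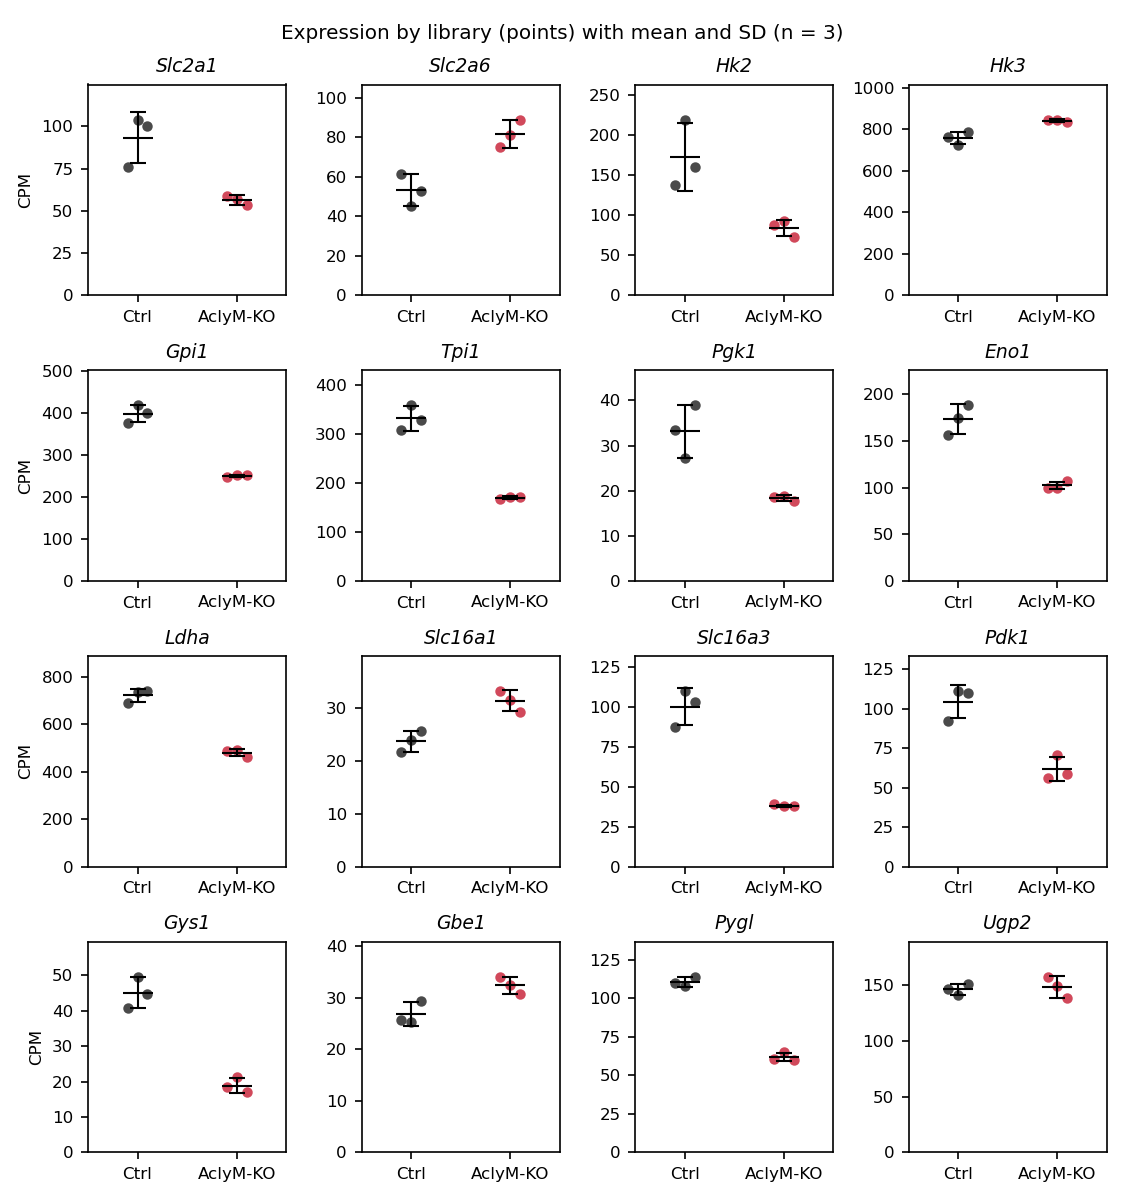
Expression in CPM (y axis, linear from 0) of 16 genes in the 3 Ctrl and 3 AclyM-KO libraries (x axis), with points for libraries and bars for the mean and SD. Slc16a3, Tpi1, Gys1 and Pygl show wide gaps between the groups, Slc2a6, Hk3, Slc16a1 and Gbe1 are higher in AclyM-KO, and Ugp2 overlaps.

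The lactate end of the pathway held the largest fall of the list. Slc16a3 (chromosome 11, 120948484 to 120959000) encodes MCT4, the monocarboxylate transporter of cells that export lactate. It was at 87.5, 110 and 103 CPM in Ctrl and 39.0, 37.8 and 38 CPM in AclyM-KO, which is 38.1% of the Ctrl mean. The AclyM-KO libraries were almost equal and lay well below every Ctrl library (log2 fold change -1.39, SE 0.0742, adjusted p = 9.22e-09 by edgeR). By p-value it was number 7 of all genes tested. Slc16a1 encodes MCT1, which carries lactate either way, and moved oppositely. It rose from 21.6, 24 and 25.6 CPM to 33.2, 31.6 and 29.3 CPM, without overlap, by 0.40 on the log2 scale (SE 0.0832, adjusted p = 0.00231 by edgeR), which is within the limit. Ldha (chromosome 7, 46842274 to 46855627), whose subunit favours making lactate, was at 687, 736 and 739 CPM in Ctrl and 488, 490 and 462 CPM in AclyM-KO. The groups were well separated. Its log2 fold change of -0.59 (SE 0.0457, adjusted p = 2.93e-07 by edgeR) was only just past the limit and within it without Ctrl replicate 2 or 3 or AclyM-KO replicate 3. For Ldhb, whose subunit favours pyruvate, the Ctrl libraries held 58, 30 and 37 counts and the AclyM-KO libraries 25, 29 and 29. Its call (-0.74, adjusted p = 0.0396 by edgeR) rested on these few counts and was lost in 5 of the 6 fits that left out a library, all but the fit without Ctrl replicate 2.

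Pyruvate dehydrogenase kinases switch off the enzyme that turns pyruvate into mitochondrial acetyl-CoA. Pdk1 (chromosome 2, 71873215 to 71903858), the isozyme induced by HIF-1, was at 92.1, 111 and 110 CPM in Ctrl and 56.1, 70.3 and 58.6 CPM in AclyM-KO. The groups did not overlap and the log2 fold change was -0.75 (SE 0.0827, adjusted p = 9.48e-06 by edgeR). Pdk2, a less abundant isozyme, was at 16.1, 14.2 and 12.7 CPM in Ctrl and 9.07, 8.04 and 8.91 CPM in AclyM-KO, with a log2 fold change of -0.73 (adjusted p = 4.48e-04 by edgeR). Pdk3 was at 20.1 ± 0.21 CPM in Ctrl and 17.0 ± 1.10 CPM in AclyM-KO (SD, n = 3). Its groups were apart, but its log2 fold change of -0.24 did not pass the test (adjusted p = 0.054 by edgeR). Pdk4, the isozyme of fasting tissues, had no counts in any of the 6 libraries. A count of 0 allows up to 3 counts, or 0.192 to 0.247 CPM depending on the library, where only counting error is covered.

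Of the 6 glycogen genes 3 fell, among them those for the synthase and the phosphorylase, and 1 rose. Over all genes tested, 12.6% fell and 12.4% rose. Gys1 (chromosome 7, 45434839 to 45456617) encodes the glycogen synthase found outside the liver. It fell from 40.9, 49.6 and 44.8 CPM to 18.4, 21.2 and 17.0 CPM, or 41.8% of the Ctrl mean. The groups did not overlap and the log2 fold change was -1.25 (SE 0.0926, adjusted p = 1.96e-07 by edgeR), second in size to that of Slc16a3. Of its exonic bases, 8.43% lie under exons of Ruvbl2 on the other strand. Counts of Ruvbl2 were 299, 240 and 260 in Ctrl, and 332, 274 and 301 in AclyM-KO. Pygl (chromosome 12, 70190815 to 70227683) encodes a glycogen phosphorylase, which releases glucose phosphate from the chain. It was at 110, 108 and 114 CPM in Ctrl and 60.9, 65.2 and 60.0 CPM in AclyM-KO, with little spread in either group (log2 fold change -0.84, SE 0.0527, adjusted p = 3.97e-08 by edgeR). The synthase and phosphorylase genes thus fell together. The branching enzyme gene Gbe1 rose, from 25.7, 25.3 and 29.4 CPM to 34.0, 32.4 and 30.6 CPM, without overlap and by 0.27 on the log2 scale (adjusted p = 0.0217 by edgeR).

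Ugp2 makes UDP-glucose, the sugar donor for glycogen. It was at 146 ± 5.0 CPM in Ctrl and 148 ± 9.60 CPM in AclyM-KO (SD, n = 3), with a 95% interval for the log2 fold change from -0.10 to 0.14. Phosphoglucomutase links glucose phosphate to glycogen. Its main gene Pgm1, which older mouse annotations name Pgm2 and which lies on chromosome 4 (99929451 to 99987294), was at 69.2 ± 3.67 CPM in Ctrl and 49.2 ± 2.19 CPM in AclyM-KO (SD, n = 3). It fell by 0.49 on the log2 scale (adjusted p = 2.60e-05 by edgeR). Of its exonic bases, 16.8% lie under exons of Itgb3bp on the other strand, which had 25 to 48 counts. Pgm2, formerly named Pgm1, on chromosome 5 from 64092919 to 64128355, was at 31.6 ± 1.65 CPM in Ctrl and 30.2 ± 1.85 CPM in AclyM-KO (SD, n = 3). For Pgm2 the interval ran from -0.22 to 0.10.

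Summed over the genes of each group per kilobase of transcript, the start of the pathway differed from the rest. The glucose transporters summed to 54.8 ± 2.00 RPKM in Ctrl and 56.9 ± 2.57 RPKM in AclyM-KO, and the hexokinases to 296 ± 5.67 and 303 ± 4.63 RPKM (SD, n = 3), or 104% and 102% of Ctrl. Lower Slc2a1 and Hk2 stood beside higher Slc2a6 and Hk3 in these sums. Downstream the sums were lower. The isomerase and phosphofructokinase genes reached 71.2% of the Ctrl mean, aldolase and triose phosphate isomerase 67.5%, the pay-off phase 70.4% and the lactate genes 64.8%. The kinases of pyruvate dehydrogenase were at 66.1%, glycogen genes at 82.4% and PFKFB genes at 90.7%. Such sums weigh abundant genes most, count mRNA and not enzyme, and were not tested.

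**Figure D4:**
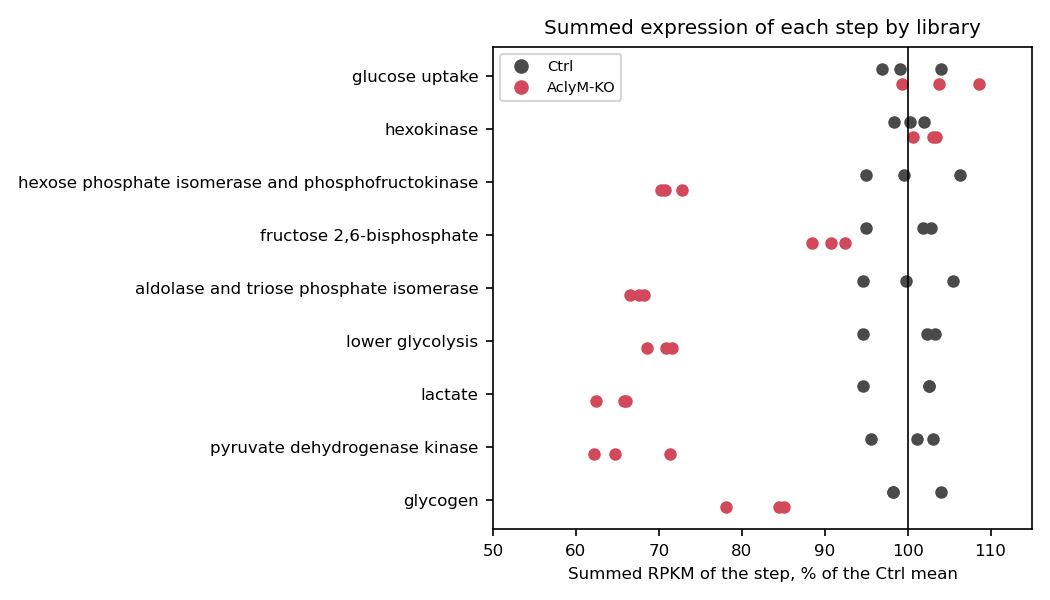
Summed RPKM of the genes of each pathway group (y axis) as a percentage of the Ctrl mean (x axis), with 1 point for each library. In the glucose uptake and hexokinase groups the libraries of both genotypes lie around 100%, whereas the other groups are lower in every AclyM-KO library.

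Whether isozymes of a step differed from each other was asked with the log2 ratio of their counts per kilobase within each library, which does not depend on the scaling between libraries. In all, 15 pairs were compared. The ratio of Slc16a3 to Slc16a1 was 2.98, 3.15 and 2.97 in Ctrl and 1.19, 1.22 and 1.34 in AclyM-KO, a difference of -1.79, so that MCT1 transcripts went from 10.9% to 29.6% of the pair. Slc16a7, a gene of the same transporter family at 14.7 RPKM in Ctrl and 13.0 RPKM in AclyM-KO, was not part of this pair. The ratio of Slc2a6 to Slc2a1 was 0.30, -0.59 and -0.32 in Ctrl and 0.97, 1.11 and 1.35 in AclyM-KO. Slc2a6 thus went from 45.4% ± 7.85 to 67.0% ± 2.67 of the summed transcripts of Slc2a1, Slc2a3 and Slc2a6 (SD, n = 3). Slc2a8 and Slc2a9, at 7.66 and 8.18 RPKM in Ctrl, were not part of this sum. The ratio of Hk2 to Hk1 had a mean of 0.04 in Ctrl and -0.78 in AclyM-KO. Hk2 went from 10.5% ± 2.56 to 5.05% ± 0.526 of the summed transcripts of Hk1, Hk2 and Hk3 (SD, n = 3).

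The ratio of Slc2a3 to Slc2a1 was -4.40, -4.56 and -4.28 in Ctrl and -3.79, -3.62 and -3.37 in AclyM-KO, a difference of 0.82 for a pair in which Slc2a3 is scarce. Smaller shifts were measured elsewhere. The difference was 0.56 for Eno2 against Eno1, 0.47 for Pdk3 against Pdk2, 0.33 for Pfkp against Pfkl, 0.34 for Hk3 against Hk1, 0.19 for Pfkfb2 against Pfkfb4 and -0.39 for Aldoc against Aldoa. For 10 of the 15 ratios, 3 lower and 7 higher, the groups did not overlap, while among single genes 19.8% and 20.5% of those tested did not. These are unlike measures, because no such share was computed for ratios and several pairs hold the same gene. Each of the 10 ratios had an exact two-sided permutation p of 0.10, which is the lower bound for groups of 3 and 3. After adjustment over the 15 pairs it was 0.15, so this test could not reach 0.05. The groups overlapped for Ldhb against Ldha (difference -0.10), Pdk1 against Pdk2 (-0.04), Pfkfb3 against Pfkfb4 (-0.03), Pfkm against Pfkl (0.10) and Eno3 against Eno1 (0.56). In Ctrl and AclyM-KO alike, Ldha made up 99.5% of lactate dehydrogenase transcripts.

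**Figure D5:**
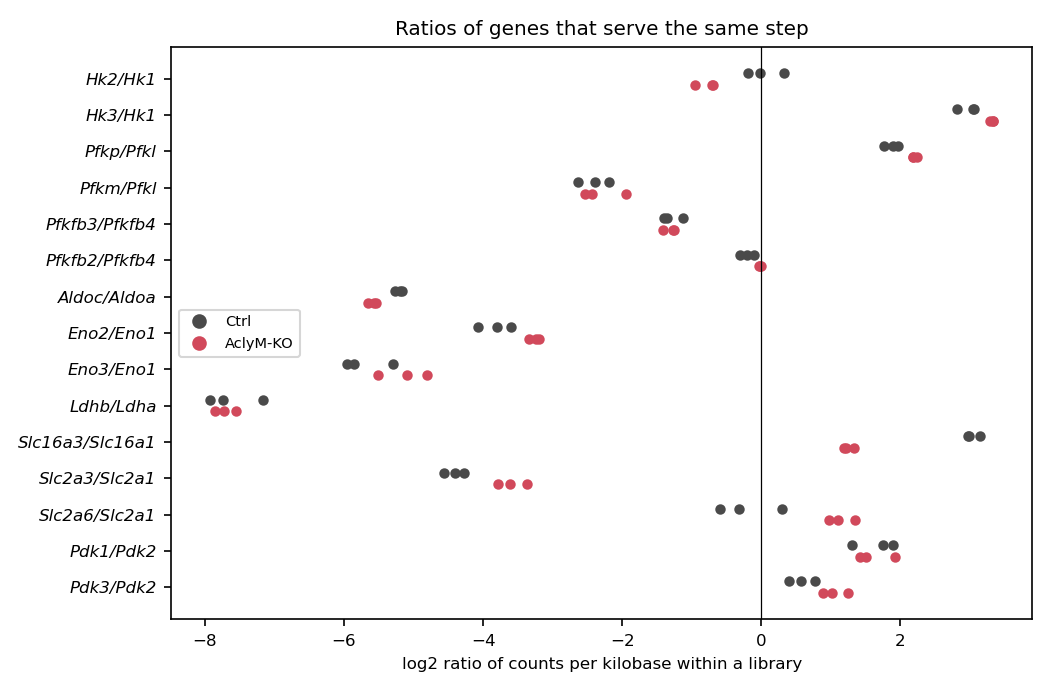
Log2 ratio of counts per kilobase of 2 genes that serve the same step (x axis) for 15 pairs (y axis), with 1 point for each library. The gap between groups is widest for Slc16a3/Slc16a1, and the groups overlap for Ldhb/Ldha and Pdk1/Pdk2.

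Other genes of glucose and glycogen metabolism, listed for their function, did not move one way. Of 70 such genes 52 could be tested, of which 2 were called lower and 3 higher, and 8 fell and 10 rose by the adjusted p-value alone. Over all genes tested 2.57% were called lower and 2.98% higher, and 12.6% fell and 12.4% rose, and the calls that follow are given as a description. Their median log2 fold change was 0.01. Genes called higher included Pgm2l1, which makes the bisphosphate cofactor of phosphoglucomutase (0.77, adjusted p = 3.54e-05 by edgeR), and the ADP-dependent glucokinase gene Adpgk (0.68, adjusted p = 3.87e-05 by edgeR). Called lower were 2 genes for subunits that bring protein phosphatase 1 to glycogen, Ppp1r3c (-1.27, adjusted p = 0.00379 by edgeR) and Ppp1r3b (-0.61, adjusted p = 3.10e-04 by edgeR). Ppp1r3c had few counts, 43, 26 and 51 in Ctrl and 19, 17 and 19 in AclyM-KO. The call of Ppp1r3b was lost without Ctrl replicate 2 or AclyM-KO replicate 3. Pyruvate dehydrogenase phosphatases oppose the PDK enzymes. Their genes Pdp1 and Pdp2 rose within the limit, by 0.37 and 0.52 on the log2 scale (adjusted p = 1.85e-04 and 3.04e-04 by edgeR), from 80.2 ± 5.42 to 104 ± 2.92 CPM and from 24.9 ± 2.82 to 35.8 ± 0.968 CPM (SD, n = 3).

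Neighbouring pathways were set beside these values, without a test between lists. Over all genes tested, 12.6% fell, 12.4% rose and 2.57% were called lower. Of 12 pentose phosphate pathway genes 1 rose, Pgd, from 261 ± 2.47 to 327 ± 9.59 CPM (SD, n = 3), and the median log2 fold change was 0.005. Of 20 TCA cycle genes 1 fell and 2 rose, with a median of 0.07, and like Pgd they stayed within the fold change limit. Of 23 tested hypoxia-response genes outside glycolysis, 14 fell and 11 were called lower, with a median of -0.43, among them the mitophagy gene Bnip3, which went from 19.9 ± 1.06 to 8.29 ± 0.445 CPM (SD, n = 3). Macrophage markers summed to 19029 to 19992 CPM in Ctrl and 16403 to 16679 CPM in AclyM-KO, where 4 of the 9 genes fell and 1 rose. Lyz2 and Mertk were called lower, Csf1r and Itgam fell within the limit, and Adgre1 rose. Lyz2 alone went from 6595 ± 515 to 4142 ± 120 CPM (SD, n = 3), which is most of the drop in the sum. Only the AclyM-KO mice carry Lyz2-Cre, so the Cre driver and the loss of Acly cannot be told apart, for Lyz2 or any other gene here. The neutrophil list, led by Csf3r, which macrophages express too, summed to 201 to 220 CPM in Ctrl and 166 to 182 CPM in AclyM-KO. Csf3r itself fell, from 191 ± 9.78 to 146 ± 9.51 CPM (SD, n = 3). The neutrophil genes S100a8 and S100a9 were called higher but reached only 5.33 and 8.44 CPM in AclyM-KO, and Ly6g was below 0.1 CPM. Dendritic cell markers summed to at most 5.28 CPM, and of these Cd209a was called higher, from 0.301 to 0.959 CPM on average. The part of these cells in the results above was not tested. In RNA from whole cultures, fewer cells of a type and less RNA per cell cannot be told apart.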

How the data were processed

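RNA was isolated with the RNeasy Mini Kit, strand-specific libraries were made with the KAPA mRNA HyperPrep kit and sequenced on an Illumina HiSeq instrument, and reads were aligned to mm10 with STAR 2.5.2b. The authors deposited raw read counts per RefSeq transcript; the counting program is not given in the sources used here. Rows were named through RefSeq (35440 rows) and GENCODE M21 (188 rows), and 117 of 35745 rows without a gene, with 0.37% to 1.38% of counts, were left out. The row with the highest total was kept for each gene. Whether counting used strand is not given in the sources used here, so overlapping genes may share counts.

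The test was the quasi-likelihood F-test of edgeR 4.0.16 under R 4.3.3, after filterByExpr and TMM scaling, with genotype as the only term. Standard errors (SE) are the log2 fold change divided by the root of the F statistic. CPM use TMM-scaled library sizes. RPKM divide CPM by the length of the kept transcript in GENCODE M21, and change with that choice. Ratios used a pseudocount of 0.5 counts. The study used DESeq2, run here (1.42.0) as an alternative beside limma-voom 3.58.1, other scalings, no filter, other call limits, the mean over a gene's rows, a replicate term and the removal of each library. The edgeR procedure was tested on simulated data. Genes and lists were chosen with earlier results of these data known. Every gene of the list is named, as are other pathway genes that were called or had the 5 lowest p-values, except for an item that is not reported here. Naive macrophages and protein sequences were not used here. The replicate numbers of the labels did not pair the libraries, with correlations of deviations from the group means of -0.0651, 0.0498 and -0.0314 for equal numbers. Depth limits genes with few counts most.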

Additional observations from a re-analysis of the deposited data

How the results depend on the processing

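The numbers of 15 genes called lower and 1 called higher changed most with the call rule. By the adjusted p-value alone they were 24 and 4, against 12.6% and 12.4% of all genes tested. With glmTreat, which asks whether a change exceeds the fold change limit, 6 were lower and 0 higher. With a limit of 1 on the log2 scale, 3 were lower and 0 higher. The shares of all genes under glmTreat and under a limit of 1 were not computed, so these counts are a description. The other pathway genes gave 0 lower and 0 higher with glmTreat, 8 and 10 by the adjusted p-value alone, and 1 and 0 with a limit of 1, against 2 and 3. In the fits that left out 1 library, 13 to 16 genes were called lower and 0 to 1 higher, where Slc2a6 was lost without Ctrl replicate 2 or AclyM-KO replicate 3. The median log2 fold change of -0.46 lay between -0.50 and -0.43 in those fits, and was -0.24 without the 8 genes that share over 20% of their sequence. For 3 genes that were not called, leaving out 1 library changed the sign: Slc2a3 lay between -0.036 and 0.233 (negative without Ctrl replicate 1), Pfkfb2 between -0.119 and 0.026 (positive without Ctrl replicate 1) and Ugp2 between -0.026 and 0.067 (negative without Ctrl replicate 2 or AclyM-KO replicate 1). With the replicate block the median was -0.46, Ldhb lost its call and Pgam1 gained one; no other gene of the list changed. DESeq2 gave the same changes, and the other scaling by DESeq2 size factors and the fit without a filter gained only Pgam1. Upper quartile scaling, limma-voom and the mean over rows changed no call. All 15 isozyme differences stayed within 1 SD of their value under each alternative run. For Ldhb against Ldha, Pdk1 against Pdk2, Pfkfb3 against Pfkfb4 and Pfkm against Pfkl, leaving out 1 library could still change the sign. The groups overlapped for each of these pairs. Before the start alone, the promoter share of the list was the same, 73.7%, while that of genes tested was 55.6% and not 61.6%. ACGTG alone was then in 40.4% of the windows, against 21.8% for genes tested. Counts under about 100 in a library, as for Gapdh and Ldhb, leave wide intervals.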

Other observations

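Several RefSeq transcripts were listed for 17 of the 38 genes. For 14 of these, the transcript with the fewest counts was within 2% of the transcript with the most, so isoforms could not be separated. The 2 Pkm transcripts had 68054 and 68055 counts over the 6 libraries, and the use of its alternative exons could not be read from the table. Pfkfb2 was the exception among the 17 by size, with 1158 to 4167 counts on its 4 transcripts, or 27.8% at the lowest. Of the exonic bases of the Pfkfb2 transcript used, 48.2% lie under exons of Gm29427 on the same strand.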
